A study of Mus musculus with 24 samples.

Results

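Transcripts of 8 genes that are characteristic of T cells were followed through RNA sequencing libraries made from dendritic cells purified on CD11c. The genes are Cd3e, Cd3d, Cd3g, Cd2, Lck, Ikzf3, Camk4 and Gimap4, taken by name from the deposited table of normalised counts, which lists 12767 genes. All 8 were listed, and all 8 passed the filter of a mean of at least 10 that left 12749 genes to test.

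The cells came from the mesenteric lymph nodes of mice with MC38 tumours, a mouse colon carcinoma line, and were captured with magnetic CD11c beads. Bead capture enriches for CD11c and does not exclude other cells. Mice were of strain C57BL/6, labelled female, 6 to 8 weeks old, and either wild type (WT) or knockout for Myd88, a signalling adaptor of Toll-like and interleukin-1 receptors; the labels give no allele for the knockout. Each received 1000000 tumour cells under the skin. Groups were formed at random on day 7 to 10, when tumours averaged 100 mm3, and treated for 2 to 3 weeks. In each genotype the groups were control IgG, an antibody against the checkpoint receptor PD-1, live LGG (the bacterium Lactobacillus rhamnosus GG) by mouth, and LGG with the PD-1 antibody, called the combination here. Antibodies were given at 200 ug per mouse and every treatment at 2 doses a week, and no antibody is recorded for the mice with LGG alone, so these differ from the IgG mice in the antibody as well. This gives 8 groups of 3 libraries. The labels do not say that the 3 libraries of a group came from separate animals, so the p-values measure only the spread between these libraries, which may be technical.

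T cells recognise antigen through a receptor whose antigen-binding chains cannot signal on their own. They are assembled with the CD3 chains, encoded by Cd3e, Cd3d and Cd3g, and with the zeta chain encoded by Cd247. When the receptor is engaged, the kinase Lck phosphorylates the CD3 tails and Zap70 is recruited to them. The CD3 chains are the usual marks of a T cell, while Cd2, Lck, Ikzf3, Camk4 and Gimap4 are also made by other lymphocytes such as NK cells, and Ikzf3 by B cells.

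The 3 CD3 genes are neighbours on mouse chromosome 9 (build GRCm38, the same as mm10). Cd3g spans 44969572 to 44980431 on the minus strand, Cd3d 44981786 to 44987339 on the plus strand and Cd3e 44998740 to 45009627 on the minus strand. Cd3g and Cd3d are transcribed away from each other, with 1354 bases between them, and the whole cluster covers 40056 bases. Windows of 300 bases around the annotated transcription start were at hand for 5 of the 8 members (RefSeq, GRCm38.p6). All 8 members, not only the CD3 genes, were lower in knockout in every treatment, and the Gimap4 window is not shown. The windows of the CD3 cluster are shown because its 3 genes are neighbours. The upstream one of the Lck windows is shown because this kinase acts on their products. They lie at chr9:44980382-44980681 (Cd3g), chr9:44981536-44981835 (Cd3d), chr9:45009562-45009861 (Cd3e) and chr4:129573592-129573891 (Lck), and are written 5′ to 3′ along the gene's own strand with motif matches in capitals.
Cd3g: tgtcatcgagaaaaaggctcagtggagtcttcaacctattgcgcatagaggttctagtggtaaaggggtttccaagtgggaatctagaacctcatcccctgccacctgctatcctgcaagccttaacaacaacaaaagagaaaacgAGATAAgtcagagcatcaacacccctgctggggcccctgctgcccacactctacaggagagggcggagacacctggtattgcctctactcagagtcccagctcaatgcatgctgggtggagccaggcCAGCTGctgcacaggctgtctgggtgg
Cd3d: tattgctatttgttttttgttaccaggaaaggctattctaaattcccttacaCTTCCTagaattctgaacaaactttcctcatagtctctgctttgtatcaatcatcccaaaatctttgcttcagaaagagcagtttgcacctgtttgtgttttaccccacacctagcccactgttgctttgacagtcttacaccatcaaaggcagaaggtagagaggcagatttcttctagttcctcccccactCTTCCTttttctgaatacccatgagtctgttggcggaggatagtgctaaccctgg
Cd3e: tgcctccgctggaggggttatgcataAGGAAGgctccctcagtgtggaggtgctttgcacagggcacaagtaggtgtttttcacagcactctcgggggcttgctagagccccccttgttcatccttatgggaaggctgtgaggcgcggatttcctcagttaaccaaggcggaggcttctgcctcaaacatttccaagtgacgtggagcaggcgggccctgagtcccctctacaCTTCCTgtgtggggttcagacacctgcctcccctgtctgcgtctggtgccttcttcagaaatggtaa
Lck: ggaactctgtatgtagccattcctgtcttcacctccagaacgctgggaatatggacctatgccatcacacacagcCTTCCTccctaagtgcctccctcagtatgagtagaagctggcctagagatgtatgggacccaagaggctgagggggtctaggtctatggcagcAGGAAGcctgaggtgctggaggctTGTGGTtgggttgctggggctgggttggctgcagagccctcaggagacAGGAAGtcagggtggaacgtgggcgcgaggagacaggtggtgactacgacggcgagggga

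The motifs were searched on both strands, and no matches overlapped in these windows. The letters AGGAAG stood for the ETS factors and the letters TGTGGT for the RUNX factors. For the E-box the letters were CAGCTG, for the GATA factors the search used the letters AGATAA, and for the TATA box it used the letters TATAAA. With the start as base 1, the Cd3d window held ETS matches that begin at -198 and -5, and the Cd3e window at -224 and -17. The Cd3g window held no ETS match, but a GATA match at -104 and an E-box at 24. The Lck window held a RUNX match at -58 and ETS matches at -175, -82 and -10. Of 32851 promoter windows of this length in the genome, 35.4% held the ETS letters, 16.8% the RUNX letters, 16.3% the E-box, 11.2% the GATA letters and 13.6% the TATA box. A TATA box match was in none of the 4 windows shown. These matches describe letters and are not binding sites.

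The other members lie elsewhere: Lck on chromosome 4 (129548344 to 129573641, minus strand), Cd2 on chromosome 3 (101275899 to 101287939, minus strand) and Ikzf3 on chromosome 11 (98464902 to 98546031, minus strand). Gimap4 lies on chromosome 6 (48684549 to 48692060, plus strand) and Camk4 on chromosome 18 (32934931 to 33191228, plus strand). Antisense genes overlap 624 exon bases of Cd3e and 590 of Camk4. Whether the counting used strand is not given in the sources used here, so reads from a gene and its antisense partner could be mixed in these 2 members.

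Reads in listed genes ranged from 24531528 to 49272593 per library, and the members rested on 218 to 3291 reads per wild-type library and 15 to 868 per knockout library. Myd88 itself was counted in all libraries, at 1723 to 2232 normalised counts in wild type and 697.3 to 1837 in knockout, with the highest knockout library inside the wild-type range. The deposited values are per gene and would not reveal that some exons are missing, so "knockout" means here a library labelled as such. The 4 Y-linked genes Ddx3y, Eif2s3y, Kdm5d and Uty summed to 0.94 to 10.4 normalised counts in wild-type libraries and 3060 to 4857 in knockout libraries, although all mice are labelled female, and this difference and the genotype cannot be told apart. Xist, the X-linked gene of the same check, was not in the deposited table and could not be read in either genotype. Itgax, which encodes CD11c, was high in every library, at 9637 to 25427 in wild type and 33061 to 53698 in knockout. Of 14 dendritic cell marker genes, 4 were higher in knockout under IgG (19.1% of all genes tested were), 5 lower (20% of all genes) and 5 did not pass. Zbtb46 lay at 399 to 431 in wild-type IgG and 197 to 220.3 in knockout IgG, Flt3 at 96.0 to 121 and 5.84 to 9.78, and Clec9a at 182 to 232 and 284 to 334. Xcr1, a chemokine receptor of a dendritic cell subset, was higher in knockout by 2.57 ± 0.19 on the log2 scale (limma adjusted p = 1.30e-09). Replicates agreed least in knockout anti-PD-1 and knockout LGG, with a biological coefficient of variation of 0.376 and 0.249 against 0.0332 to 0.0887 in the other groups. Knockout anti-PD-1 replicates 2 and 3 and knockout LGG replicate 2 stood apart from their groups. Short transcripts sat low or high against long ones there, by -0.84, 0.98 and 0.68 on the log2 scale. In the same groups, knockout LGG replicate 3 and knockout anti-PD-1 replicate 1 were kept, although they also had such shifts, of -0.79 and 0.52. Counts of members called in comparisons that use these groups are given with and without the 3 libraries, and so are the ratios between members and the list counts in knockout with LGG. Knockout anti-PD-1 then has 1 library, which is assumed to vary like the other groups. Other values use all 24 libraries.

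**Figure D1:**
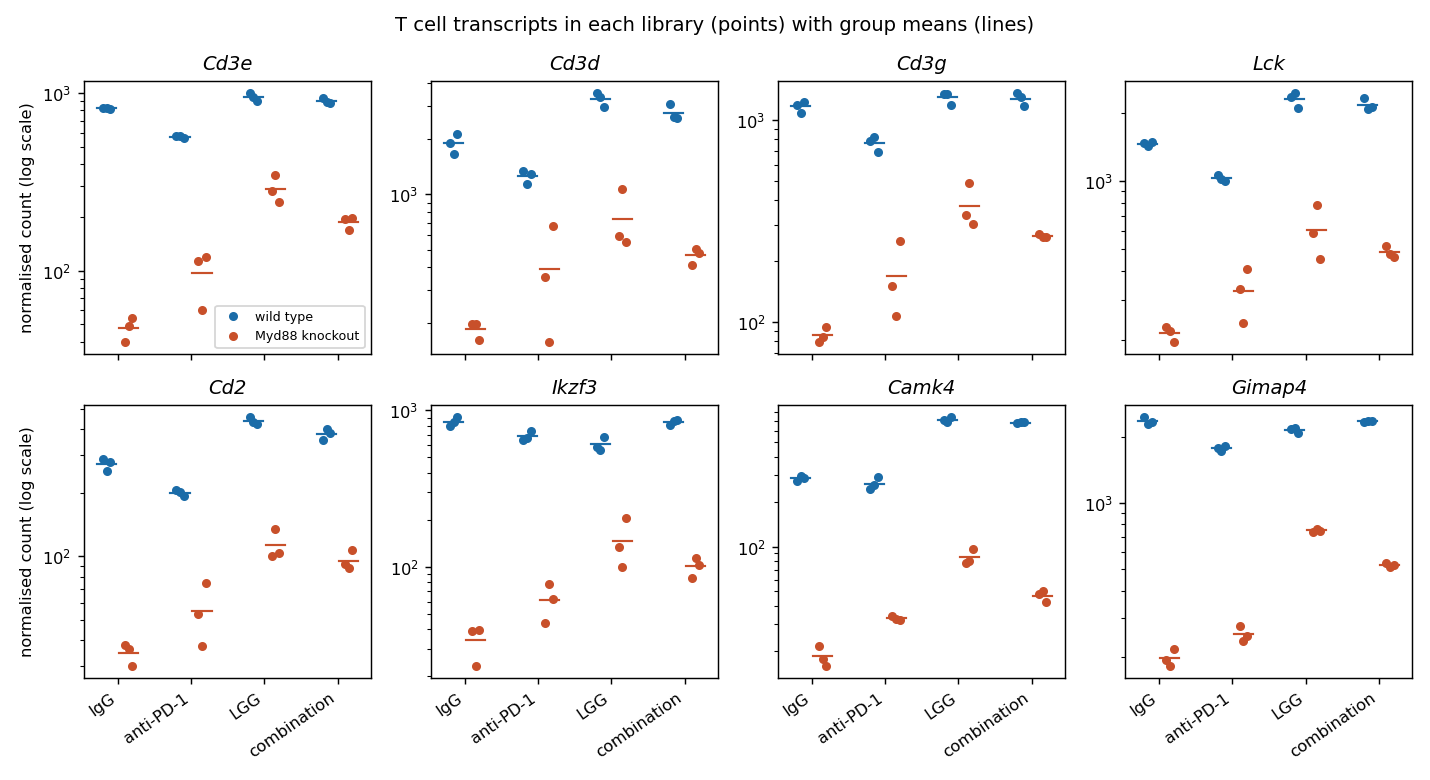
Normalised counts of the 8 T cell transcripts (log scale) by treatment, with each point a library and each line the mean of 3; blue is wild type and red is Myd88 knockout. For each gene and treatment the 3 wild-type libraries lie above the 3 knockout libraries, and the gap is widest under IgG.

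The first comparison was between genotypes under control IgG. All 8 T cell transcripts were lower in knockout than in wild-type libraries, by 6.82-fold (Lck) to 24.9-fold (Ikzf3) between group means, where 20% of all genes tested were called lower. The median log2 difference over the 8 was -3.66, against 0.0081 over all genes. These are bulk libraries, so fewer T cells in a preparation and less of these RNAs per cell cannot be told apart.

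Among the CD3 chains, Cd3e read 825, 820.3 and 818 normalised counts in the wild-type IgG libraries and 39.8, 49.1 and 54.0 in the knockout ones. Cd3d read 1899.5, 1659 and 2133 against 198, 196 and 161. Cd3g read 1186, 1086 and 1220.0 against 79.5, 84.1 and 94.3. For all 3 chains every wild-type library lay far above every knockout library, and no groups overlapped, as for 32.7% of all genes in this direction. The log2 differences were -4.09 ± 0.18 (SE) for Cd3e, -3.35 ± 0.33 for Cd3d and -3.75 ± 0.21 for Cd3g, each from 3 libraries against 3 (limma adjusted p = 1.40e-12, 1.10e-07 and 2.54e-11). Knockout means were thus 5.80%, 9.77% and 7.39% of the wild-type means.

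Lck, the kinase that starts receptor signalling, read 1475, 1421 and 1488 in wild-type IgG and 227, 219.7 and 196 in knockout IgG. Cd2, an adhesion receptor that binds CD48 on other cells, read 289.6, 252 and 280.1 against 37.8, 36.2 and 30.2. These members had the smallest log2 differences of the 8, at -2.77 ± 0.17 and -2.95 ± 0.17 (limma adjusted p = 8.68e-11 and 6.82e-11). Ikzf3, the zinc finger transcription factor Aiolos of lymphocytes, read 792, 842 and 905 against 39.1, 23.4 and 39.6, the widest gap of the 8 at -4.63 ± 0.23 (adjusted p = 6.24e-12). Camk4, a kinase activated by calcium and calmodulin, read 275, 295 and 289 against 21.5, 17.5 and 15.8. Gimap4, a GTPase linked to lymphocyte survival, read 2458, 2288 and 2345 against 194, 182 and 217. The libraries of the genotypes did not overlap for any of these 5 genes. Camk4 and Gimap4 differed by -3.91 ± 0.11 and -3.58 ± 0.0701 (adjusted p = 2.30e-15 and 8.81e-18).

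Per kilobase of exon, the order of the levels in wild-type IgG was Gimap4 (1287 ± 47.0 normalised counts per kb), Cd3d (1045 ± 131), Lck (499 ± 12.1), Cd3g (356 ± 21.3), Cd3e (201 ± 0.904), Cd2 (157 ± 11.2), Ikzf3 (96.7 ± 6.43) and Camk4 (88.0 ± 3.14), each with its SD. The last pair in that order differed by less than the sum of their SDs. Cd3d, at the 89.8th percentile of listed genes per kb, was thus an abundant transcript in wild-type IgG libraries, and at the 44.0th percentile in knockout IgG. In knockout IgG, Gimap4 (108 ± 9.77) and Cd3d (102 ± 11.5) led without a gap beyond their SDs, and Ikzf3 was last (3.89 ± 1.05).

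The same comparison was then made within each treatment. All 8 members were lower in knockout also under anti-PD-1 (21.7% of all genes were called lower), under LGG (27.0%) and under the combination (27.7%), and no member's groups overlapped in any treatment (17.0%, 29.2% and 38.5% of all genes were lower without overlap). In a fit of only the 6 anti-PD-1 libraries 7 passed (4.88% of all genes), Cd3d being lost (adjusted p = 0.0832). Without the 3 libraries that stood apart all 8 were lower under anti-PD-1 (31.7% of all genes) and all 8 under LGG (34.9%). The median differences of the members were -2.42, -1.95 and -2.26 on the log2 scale, each smaller than under IgG. Under LGG the wild-type mean was 2.86-fold the knockout mean for Gimap4, 3.27-fold for Cd3e and 3.44-fold for Cd3g. Camk4 had the widest gap there, at 8.40-fold, and at 14.5-fold under the combination. Ikzf3 had the widest gap under anti-PD-1, at 11.1-fold.

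**Figure D2:**
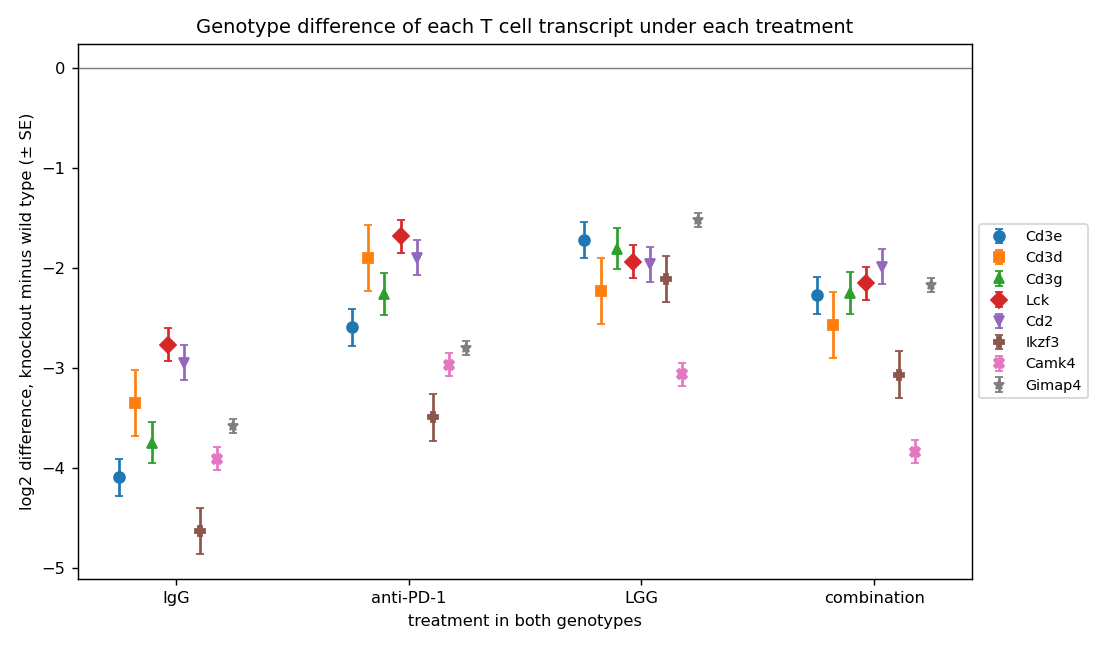
Log2 difference between knockout and wild type for each of the 8 transcripts under each treatment, with the standard error of the limma model as bars. All 32 points lie below 0, at medians of -3.66 under IgG, -2.42 under anti-PD-1, -1.95 under LGG and -2.26 under the combination.

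LGG was next set against IgG within each genotype. No antibody is recorded for the LGG mice, so this comparison does not separate the bacterium from the antibody. In knockout libraries all 8 T cell transcripts rose (18.1% of all genes were called higher), by a median of 1.99 on the log2 scale. In wild-type libraries 4 of the 8 rose (27.4% of all genes were called higher) and 4 did not pass the test, with a median of 0.43. In wild type the calls were for Cd3d, Cd2, Lck and Camk4.

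In knockout LGG libraries Cd3e read 282, 345 and 244, Cd3d read 591, 1065 and 548 and Cd3g read 336, 485 and 305 for replicates 1 to 3. All 9 values lay above those of knockout IgG given above, and the other 5 members did not overlap either (21.9% of all genes were higher without overlap). Cd3e rose by 2.58 ± 0.18 (limma adjusted p = 2.06e-09), which is 5.98-fold and the steepest rise of the 8, Cd3d by 1.92 ± 0.33 (adjusted p = 1.32e-04) and Cd3g by 2.09 ± 0.21 (adjusted p = 1.77e-07). In wild type, Cd3d read 3526, 3384 and 2963 with LGG, above all IgG libraries, and rose by 0.80 ± 0.33 (adjusted p = 0.0464). Its call was lost when any single library of either group was left out. Cd3e read 996, 950.0 and 902 and Cd3g 1349, 1334 and 1189.5. Their log2 differences were 0.21 ± 0.18 (adjusted p = 0.357) and 0.15 ± 0.21 (adjusted p = 0.569), which did not pass. The Cd3g libraries overlapped those of IgG. Of the 8 members, 5 were higher without overlap in wild type, Cd3e among them, and 2 lower (37.4% and 37.1% of all genes).

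Lck read 2343, 2428 and 2087 in wild-type LGG and 593, 782 and 454 in knockout LGG, above the IgG libraries of its genotype in each case. It rose by 0.64 ± 0.17 in wild type (limma adjusted p = 0.00262) and by 1.47 ± 0.17 in knockout (adjusted p = 9.50e-07). Cd2 read 456, 434 and 421 and 99.8, 134 and 103. It rose by 0.67 ± 0.17 in wild type (adjusted p = 0.00265) and by 1.66 ± 0.17 in knockout (adjusted p = 3.74e-07).

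Camk4 had the largest rise of the 8 in wild type. It read 704, 686 and 739 with LGG, all more than the 275 to 295 of the IgG libraries, and rose 2.47-fold, by 1.31 ± 0.11 on the log2 scale (limma adjusted p = 7.32e-09). In knockout it read 77.3, 79.8 and 96.5 and rose by 2.15 ± 0.11 (adjusted p = 2.88e-11). In wild type, Ikzf3 read 587, 561 and 677 and Gimap4 2166, 2189 and 2080.1, all below their IgG libraries. Their log2 differences of -0.48 ± 0.23 and -0.14 ± 0.0701 did not pass (adjusted p = 0.0897 and 0.099). In knockout, Ikzf3 read 134, 99.4 and 206 and rose by 2.05 ± 0.23 (adjusted p = 1.07e-06). Gimap4 read 737, 766 and 749 there and rose by 1.92 ± 0.0701 (adjusted p = 1.18e-13).

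In a fit of only the libraries compared, 7 members passed in wild type, 5 higher (36.1% of all genes) and 2 lower (36.0%). The 2 lower were Ikzf3 and Gimap4, and Cd3e joined those that were higher. In knockout all 8 still passed without the 3 libraries that stood apart (32.0% of all genes were called higher), with Cd3e at 2.45 and Gimap4 at 1.91.

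The difference of the LGG effects between genotypes was tested as an interaction. It was larger in knockout for 7 of the 8 (19.5% of all genes were called in that direction), with a median of 1.53. Ikzf3 differed most, by 2.53 ± 0.33 (limma adjusted p = 5.20e-06), then Cd3e by 2.37 ± 0.26 (adjusted p = 6.29e-07), Gimap4 by 2.06 ± 0.10 (adjusted p = 4.32e-12) and Cd3g by 1.94 ± 0.29 (adjusted p = 2.99e-05). Cd2, Camk4 and Lck differed less, by 0.99 ± 0.25, 0.85 ± 0.16 and 0.83 ± 0.23 (adjusted p = 0.00369, 3.67e-04 and 0.00895). Cd3d, at 1.12 ± 0.47, did not pass (adjusted p = 0.0694), but passed without the 3 libraries that stood apart, at 0.82 (adjusted p = 1.44e-04). Without them all 8 passed (34.1% of all genes). This compares ratios. In normalised counts, the LGG mean minus the IgG mean was larger in wild type than in knockout for 4 members, Cd3d (1394 against 549), Lck (825 against 395), Camk4 (423 against 66.2) and Cd2 (163 against 77.6). It was larger in knockout for the other 4, Cd3e (128 in wild type against 243 in knockout), Cd3g (127 against 289.5), Ikzf3 (-238 against 112) and Gimap4 (-219 against 553). These differences in counts were not tested. The LGG and IgG mice also differ in the antibody. For the combination against anti-PD-1, where both groups had the PD-1 antibody, the member medians were 0.82 in wild type and 0.74 in knockout. That difference between genotypes was not tested.

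**Figure D3:**
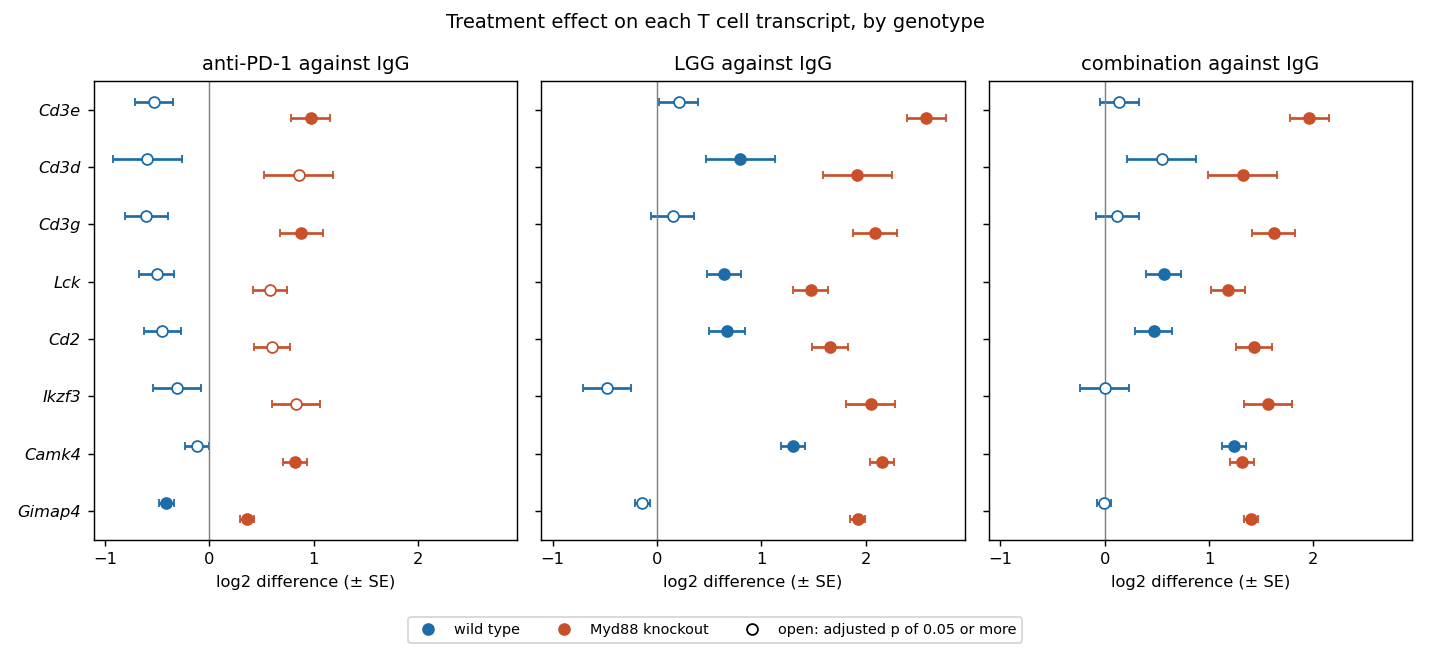
Log2 difference of each treatment from IgG for each of the 8 transcripts, in wild type (blue) and Myd88 knockout (red), with standard errors of the limma model; open symbols did not pass an adjusted p of 0.05. With LGG all 8 red points pass, between 1.47 and 2.58, while the blue points run from -0.48 for Ikzf3 to 1.31 for Camk4.

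Anti-PD-1 was set against IgG in the same way, with the same IgG libraries. In wild-type libraries Gimap4 fell and no other member passed, where 0.0235% of all genes were called lower. The 8 differences were all below 0, with a median of -0.48. In knockout libraries 4 of the 8 rose, Cd3e, Cd3g, Camk4 and Gimap4 (1.09% of all genes were called higher), with a median of 0.83 over the 8.

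In wild type, Gimap4 read 1781, 1723 and 1818 with anti-PD-1 and fell by 0.41 ± 0.0701 on the log2 scale (limma adjusted p = 0.0481). Cd3e read 574, 571 and 558, below the 818 to 825 of the IgG libraries, with a difference of -0.53 ± 0.18 that did not pass (adjusted p = 0.391). Cd3g read 783, 822 and 690.4 (difference -0.61 ± 0.21, adjusted p = 0.386). The anti-PD-1 libraries lay below the IgG libraries without overlap for 7 of the 8 members, as for 16.3% of all genes. Cd3d read 1332, 1136 and 1283, Lck 1068, 1022 and 996, Cd2 205, 201 and 193 and Ikzf3 644, 670.1 and 734. Camk4, which read 244, 258 and 291, was the member that overlapped its IgG libraries, at -0.12 ± 0.11 (adjusted p = 0.903). Of these members, 5 had an unadjusted p under 0.05 in limma, edgeR's quasi-likelihood test called 1 and DESeq2 called 3 (1028, 9 and 203 of all genes). In a fit of only the 6 libraries compared, 7 members passed as lower (6.68% of all genes), without the 3 libraries that stood apart 6 did (4.09%), and the Gimap4 call was lost when any single library of either group was left out.

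In knockout with anti-PD-1, Cd3e read 114, 59.9 and 119.5, all above the IgG libraries, and rose by 0.97 ± 0.18 (limma adjusted p = 0.0101). Cd3g read 150.0, 107 and 250.5 and rose by 0.88 ± 0.21 (adjusted p = 0.0345). Camk4 read 34.0, 32.5 and 32.2, the tightest of these groups, and rose by 0.82 ± 0.11 (adjusted p = 7.09e-04). Gimap4 read 277, 235 and 249 and rose by 0.36 ± 0.0701 (adjusted p = 0.0119). The groups did not overlap for any of these 4. Cd3d was spread widest, at 356, 157 and 668, with replicate 2 below all IgG libraries, and its difference of 0.86 ± 0.33 did not pass (adjusted p = 0.211). Lck read 335, 237 and 411 (0.58 ± 0.17, adjusted p = 0.0851). Cd2 read 53.2, 37.6 and 74.7 (0.60 ± 0.17, adjusted p = 0.0883). Ikzf3 read 43.6, 78.1 and 62.0 (0.83 ± 0.23, adjusted p = 0.0802). For Lck and Ikzf3 all anti-PD-1 libraries still lay above all IgG libraries, which made 6 members without overlap (5.87% of all genes), and for Cd2 replicate 2 did not.

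The number of members called in knockout with anti-PD-1 depended on the libraries used. Shares over all genes were not counted for the fits with a single library left out. Leaving out the single libraries knockout IgG replicate 1, IgG replicate 2, anti-PD-1 replicate 2 or anti-PD-1 replicate 3 gave 1, 2, 8 and 2 members that passed, in place of 4. With anti-PD-1 replicate 1 alone, 7 of 8 passed (4.73% of all genes called higher), Cd3e at 1.25 and Camk4 at 0.87, and Ikzf3 did not (0.39, adjusted p = 0.286). A limma fit of only the 6 libraries compared called 0 of the 8 members and 0 of all genes (0.00%). The whole fit had all 8 at an unadjusted p under 0.05, edgeR called 4 and DESeq2 8 (1992, 192 and 602 of all genes).

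As an interaction, the anti-PD-1 effect was higher in knockout than in wild type for 6 of the 8 members (1.31% of all genes), with a median of 1.11. Cd3e differed by 1.50 ± 0.26 (limma adjusted p = 0.0054), Cd3g by 1.49 ± 0.29 (adjusted p = 0.0127), Lck by 1.09 ± 0.23 (adjusted p = 0.0222) and Cd2 by 1.05 ± 0.25 (adjusted p = 0.0324). Camk4 and Gimap4 differed by 0.94 ± 0.16 and 0.77 ± 0.10 (adjusted p = 0.0054 and 3.97e-04). Cd3d at 1.45 ± 0.47 and Ikzf3 at 1.14 ± 0.33 did not pass (adjusted p = 0.115 and 0.0816). Without the 3 libraries that stood apart 7 members passed (11.9% of all genes), Ikzf3 not among them, and in a fit of only the 12 libraries involved 0 did (0.00% of all genes were called higher).

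The combination was compared with each of the other treatments. Against IgG, 3 of the 8 rose in wild type (26.7% of all genes were called higher) and all 8 in knockout (19.1%), with medians of 0.31 and 1.42. In wild type these were Camk4 at 673, 683 and 682, Lck at 2312, 2076 and 2108 and Cd2 at 357, 399 and 382, which rose by 1.24 ± 0.11, 0.57 ± 0.17 and 0.47 ± 0.17 (limma adjusted p = 1.52e-08, 0.00681 and 0.028). Cd3d read 3102, 2612 and 2579.9, above all IgG libraries, with a difference of 0.55 ± 0.33 that did not pass (adjusted p = 0.174). Cd3e (943, 896 and 882) and Cd3g (1349.6, 1291 and 1166) differed from IgG by 0.14 ± 0.18 and 0.12 ± 0.21 and did not pass (adjusted p = 0.545 and 0.647). Ikzf3 (812, 857 and 869) and Gimap4 (2341, 2352 and 2362) overlapped their IgG libraries, with differences whose 95% intervals ran from -0.49 to 0.49 and from -0.15 to 0.14. With only the libraries compared in the fit, 5 passed in wild type, Cd3e and Cd3d being added (37.2% of all genes). The same 5 were higher without overlap (38.2%).

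In knockout with the combination, the CD3 chains read 196, 169 and 198 (Cd3e), 413, 502 and 479 (Cd3d) and 272, 263 and 262 (Cd3g). They rose over IgG by 1.96 ± 0.18, 1.32 ± 0.33 and 1.62 ± 0.21 (limma adjusted p = 9.09e-08, 0.00391 and 4.53e-06). Lck read 516, 479 and 465 and Cd2 91.7, 87.4 and 107, higher than IgG by 1.18 ± 0.17 and 1.43 ± 0.17 (adjusted p = 1.41e-05 and 2.51e-06). Ikzf3 read 85.0, 115 and 103, Camk4 47.7, 50.5 and 42.2 and Gimap4 533, 514 and 522, and rose by 1.57 ± 0.23, 1.32 ± 0.11 and 1.40 ± 0.0701 (adjusted p = 2.78e-05, 3.16e-08 and 1.23e-11). All 8 lay above their IgG libraries without overlap (32.9% of all genes). The interaction for the combination was higher in knockout for 6 of the 8 (19.8% of all genes), from 0.62 ± 0.23 for Lck (adjusted p = 0.0489) to 1.82 ± 0.26 for Cd3e (adjusted p = 1.73e-05). Camk4, at 0.07 ± 0.16, and Cd3d, at 0.78 ± 0.47, did not pass (adjusted p = 0.783 and 0.223). The Lck call was lost in 15 of 21 alternatives, among them leaving out any single library of the 12 compared, a pseudocount of 8, TMM scaling and a replicate block (highest adjusted p = 0.109). In a fit without the 3 libraries that stood apart, none of which is in these groups, Lck passed at an adjusted p of 1.75e-04 and Cd3d at 1.52e-04.

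Against anti-PD-1 alone, the combination was higher for 7 members in wild type (27.7% of all genes) and 7 in knockout (19.7%). The medians over the 8 were 0.82 in wild type and 0.74 in knockout. In wild type the rises ran from 0.41 ± 0.0701 for Gimap4 (limma adjusted p = 5.13e-05) to 1.36 ± 0.11 for Camk4 (adjusted p = 3.60e-09), and Ikzf3 did not pass (0.31 ± 0.23, adjusted p = 0.269). In knockout they ran from 0.49 ± 0.11 for Camk4 (adjusted p = 0.00229) to 1.04 ± 0.0701 for Gimap4 (adjusted p = 7.80e-10), and Cd3d did not pass (0.47 ± 0.33, adjusted p = 0.271). A fit of only the 6 knockout libraries called 1 member, Gimap4 (5.73% of all genes were called higher). All 8 passed in knockout without the 3 libraries that stood apart (28.5% of all genes), Cd3d at 0.38 (adjusted p = 0.0376). These contrasts share the anti-PD-1 libraries with those above.

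Against LGG alone, the combination differed for 0 members in wild type (0.0392% of all genes were called higher and 0.0235% lower). There, 0 had an unadjusted p under 0.05 in limma, and edgeR and DESeq2 also called 0 (827, 11 and 81 of all genes). In a fit of only the 6 libraries compared 1 member passed, Ikzf3, as higher with the combination (0.777% of all genes). The 95% interval of the difference was -0.45 to 0.32 for Cd3e and -0.30 to 0.18 for Camk4. In knockout, Camk4 and Gimap4 were lower with the combination than with LGG (0.180% of all genes were called lower). Camk4 fell by 0.84 ± 0.11 and Gimap4 fell by 0.52 ± 0.0701 (limma adjusted p = 0.00211 for both). Without the 3 libraries that stood apart 4 members were lower (6.48% of all genes), Cd3e and Ikzf3 being added, and with only the 6 libraries compared 0 were (0.00%).

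The members did not keep fixed proportions to each other. Relative to Cd3e in the same library, Cd3g had group means between 1.28 and 1.82 over the 8 groups. In wild type, Camk4 was at 0.349 ± 0.0137 of the Cd3e count under IgG, 0.750 ± 0.0613 with LGG and 0.750 ± 0.0319 with the combination (mean ± SD, n = 3), while Ikzf3 was at 1.03 ± 0.0731 under IgG, 0.644 ± 0.0929 with LGG and 0.934 ± 0.0652 with the combination. In knockout the ratio of Lck to Cd3e was 4.60 ± 1.04 under IgG, 3.45 ± 0.511 with anti-PD-1, 2.08 ± 0.204 with LGG and 2.61 ± 0.246 with the combination, the last pair near the 2.41 ± 0.131 and 2.39 ± 0.0669 of wild type. Cd2 and Gimap4 followed the same order in knockout at IgG and LGG, from 0.750 ± 0.196 to 0.388 ± 0.0352 and from 4.20 ± 0.597 to 2.63 ± 0.423. The Lck ratio without the 3 libraries that stood apart was 2.94 in the remaining anti-PD-1 library and 1.86 to 2.10 in the remaining pair of LGG libraries. In that pair Cd2 was at 0.354 to 0.424 and Gimap4 at 2.61 to 3.07 of the Cd3e count. These ratios were not tested. The knockout IgG ratios divide by 40 to 54 normalised counts of Cd3e and are the least precise.

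**Figure D4:**
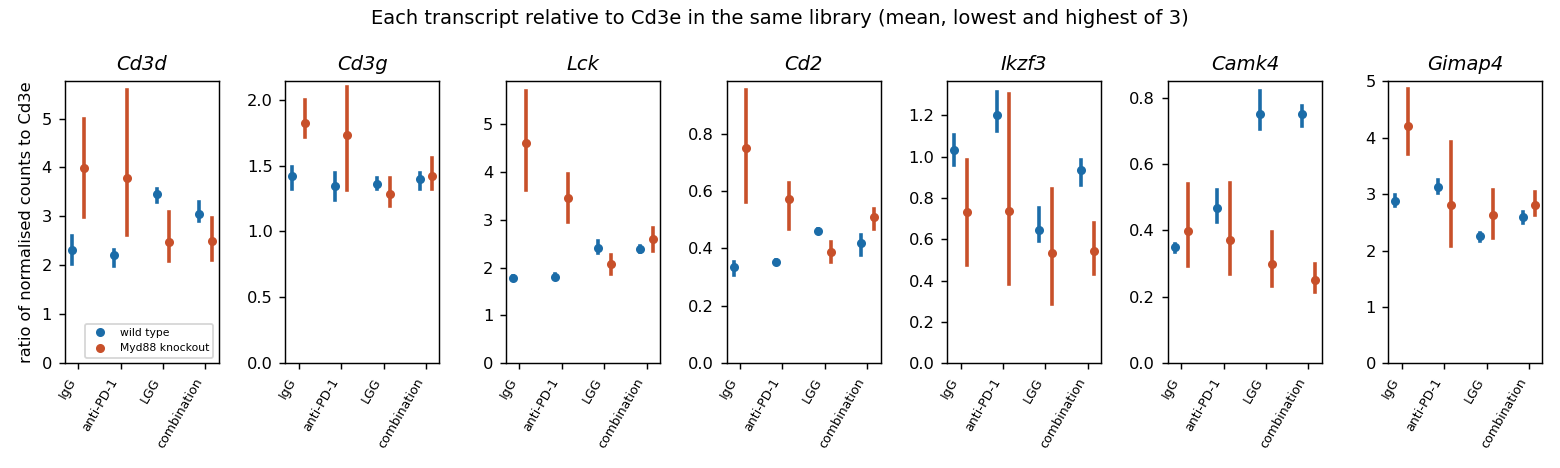
Ratio of the normalised count of 7 transcripts to that of Cd3e in the same library, by treatment, with the mean as a point and the lowest and highest of 3 libraries as a line. The Camk4 ratio stands near 0.75 in both wild-type groups with LGG and between 0.25 and 0.40 in knockout means, and the Lck ratio is highest in knockout IgG.

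Levels of the 8 across all 24 libraries ran largely in parallel. The correlation of each with the mean of the other 7 lay between 0.95 (Ikzf3) and 0.99 (Cd3g), over libraries that share the gap between the genotypes. With group means subtracted, Cd3d (0.92), Cd3g (0.87), Cd2 (0.85), Lck (0.76) and Cd3e (0.68) still deviated with the rest, Gimap4 less (0.26), and Camk4 (-0.15) and Ikzf3 (-0.51) did not. Ikzf3 has the longest exon sequence of the members, 8754 bases against 1741 to 4080, and the libraries of a group also differ in their short against long transcripts; the part of this in the deviations was not tested. The genes outside the 8 most like their mean were Zap70 (r = 0.995), Cd96, Asb2, Csf2, Serpina3f, Gimap3, Fam19a3 and Gimap7 (0.991). Zap70 is the kinase recruited to the CD3 tails. With group means subtracted they were Pnkd (0.986), H2-DMb2, Pmf1, Rps24, Gtf3c6, Ndufa2, Ptms and Cyb5r3 (0.974), none of them in the first set. These are descriptions over 24 libraries and carry no test. The correlations were not computed without the 3 libraries that stood apart. Replicates agreed least in the groups of those libraries, so a few libraries may set the correlations of deviations.

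Other genes of the receptor and its signalling gave the setting. Of 37 other T cell genes that were listed, 33 were lower in knockout under IgG, 1 was higher and 3 did not pass (median -3.32, against -3.66 for the 8 members). Of all genes, 20% were called lower there and 19.1% higher. Trac and Trbc2, constant regions of the receptor's own chains, differed by -3.28 ± 0.23 and -3.32 ± 0.42, and Cd247, the zeta chain, by -3.77 ± 0.27 (limma adjusted p = 1.00e-09, 2.86e-06 and 9.77e-10). Trbc2 has a near-identical copy, Trbc1, and how the counting split their reads is not given in the sources used here. Trac read 700.2 to 807 in wild-type IgG and 70.6 to 87.4 in knockout IgG. Cd8a, a coreceptor that some dendritic cells also carry, read 6217 to 6509 against 379 to 457, and differed by -3.90 ± 0.0776 (adjusted p = 8.81e-18). Cd8b1, its partner in conventional CD8 T cells, read 186 to 233 against 14.3 to 19.9. Cd4 was low throughout, at 2.13 to 49.8 over all libraries. The gene that was higher in knockout was Il7r, the interleukin-7 receptor, by 0.99 ± 0.16 (adjusted p = 6.70e-05).

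With LGG, 34 of these 37 genes rose in knockout, 1 fell and 2 did not pass (18.1% and 14.2% of all genes rose and fell). In wild type 11 rose, 8 fell and 18 did not pass, where 27.4% of all genes were called higher and 28.2% lower. In knockout 36 rose and 1 fell without the 3 libraries that stood apart (32.0% and 29.4% of all genes). In the fit of all 24 libraries the medians of the 37 were 1.85 in knockout and 0.47 in wild type, beside 1.99 and 0.43 for the members. Without the 3 libraries the knockout medians were 1.68 for the 37 and 1.90 for the members. Zap70 rose in both genotypes, by 0.78 ± 0.18 in wild type and 2.19 ± 0.18 in knockout (limma adjusted p = 0.00101 and 1.23e-08), and so did Thy1, a surface glycoprotein of mouse T cells, by 1.14 ± 0.15 and 1.04 ± 0.15 (adjusted p = 2.88e-06 and 2.58e-05). Cd8a fell by 0.27 ± 0.0776 in wild type (adjusted p = 0.00547) and rose by 2.09 ± 0.0776 in knockout (adjusted p = 1.54e-13). Trac did not pass in wild type (0.24 ± 0.23, adjusted p = 0.39) and rose in knockout by 1.78 ± 0.23 (adjusted p = 5.81e-06). The ratio of Cd8a to Cd8b1 was 30.2 ± 2.88 in wild-type IgG and 17.6 ± 2.42 in wild-type LGG, against 26.5 ± 3.62 and 22.5 ± 6.22 in knockout (mean ± SD, n = 3), and was not tested.

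Of 20 genes of receptor signalling, which overlap the former list in part, 14 were lower in knockout under IgG (20% of all genes). Of the rest, 0 were higher (19.1% of all genes) and 6 did not pass, and the median of the 20 was -1.10. The most abundant of them, Ptprc (the phosphatase CD45), Malt1 and Csk (an inhibitor of Lck), serve many leukocytes, with differences of -0.45 ± 0.26, -0.05 ± 0.18 and -0.46 ± 0.0937 (limma adjusted p = 0.186, 0.844 and 5.52e-04). Of the 7 GIMAP genes beside Gimap4, all 7 were lower in knockout under IgG (median -2.88), as were 20% of all genes. All 7 rose with LGG in knockout (median 1.49), and 7 also without the 3 libraries that stood apart (18.1% and 32.0% of all genes). With LGG in wild type 3 of the 7 rose, where 27.4% of all genes were called higher. Gimap3, at 1906 to 2069 against 180.0 to 203, was the most abundant of them.

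NK, cytotoxic and B cell genes moved beside the members, and their part in these results was not tested. The NK and cytotoxic list does not separate NK cells from cytotoxic T cells. Of its 14 genes, 13 were listed in the deposited table and Ncr1 was not. The NK receptor gene Klrb1c read 7.68 to 186 over the wild-type libraries of all treatments and 18.3 to 65.1 over the knockout libraries. Of 13 NK and cytotoxic genes, all 13 were lower in knockout under IgG (median -3.67), where 20% of all genes were called lower. All 13 rose with LGG in knockout (median 1.87), also without the 3 libraries that stood apart (18.1% and 32.0% of all genes). In wild type with LGG 9 of the 13 rose and 2 fell (27.4% and 28.2% of all genes), with differences from -3.65 to 4.79. Their summed level was 50936 to 53283 in wild-type IgG and 5667 to 6692 in knockout IgG, and Gzmb, a granzyme of killer cells, read 9417 to 9979.6 against 652 to 792. None of the 13 was at 0 in a library. Of 12 B cell genes, 9 were lower in knockout under IgG and 1 was higher (20% and 19.1% of all genes). Their summed levels were 2739 to 2846 in wild type and 2814 to 3194 in knockout. Blnk, an adaptor of B cell receptor signalling, was the most abundant and was the gene that was higher, by 0.92 ± 0.16 (limma adjusted p = 1.50e-04). Without Blnk the other 11 summed to 1560.0 to 1608 in wild type and 711 to 806 in knockout. Ighm and Cd79b, parts of the B cell receptor, differed by -2.10 ± 0.14 and -3.03 ± 0.31 (adjusted p = 3.75e-10 and 1.88e-07). Ms4a1, which encodes the B cell surface protein CD20, was at 0 in 1 knockout IgG library. With LGG in knockout 8 B cell genes rose, with and without the 3 libraries that stood apart (18.1% and 32.0% of all genes).

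Markers of myeloid cells differed in both directions between the genotypes under IgG. The 14 dendritic cell genes had summed levels of 233373 to 260110 in wild type and 225362 to 241709 in knockout. Of 13 macrophage and monocyte genes 4 were higher and 5 lower, against 19.1% and 20% of all genes, with sums of 278827 to 300962 and 391649 to 435583. Most of that sum was Lyz2, a lysozyme gene, at 168787 to 177736 in wild type and 290112 to 339522 in knockout. Without Lyz2 the other 12 summed to 110040 to 123356 in wild type and 96061 to 101536 in knockout, so the order of the sums turned. With LGG in wild type, where 4 of the 8 members rose, these macrophage genes summed to 89880 to 99669. Of them, 9 were lower and 2 higher (28.2% and 27.4% of all genes). In knockout with LGG they summed to 279275 to 383261, with 4 lower and 2 higher, where 14.2% of all genes were called lower and 18.1% higher. Without the 3 libraries that stood apart 7 were lower and 4 higher (29.4% and 32.0% of all genes). The plasmacytoid dendritic cell genes, 8 in number, had 5 lower and 1 higher in knockout under IgG (20% and 19.1% of all genes). Ly6d was at 0 in all 3 knockout IgG libraries.

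**Figure D5:**
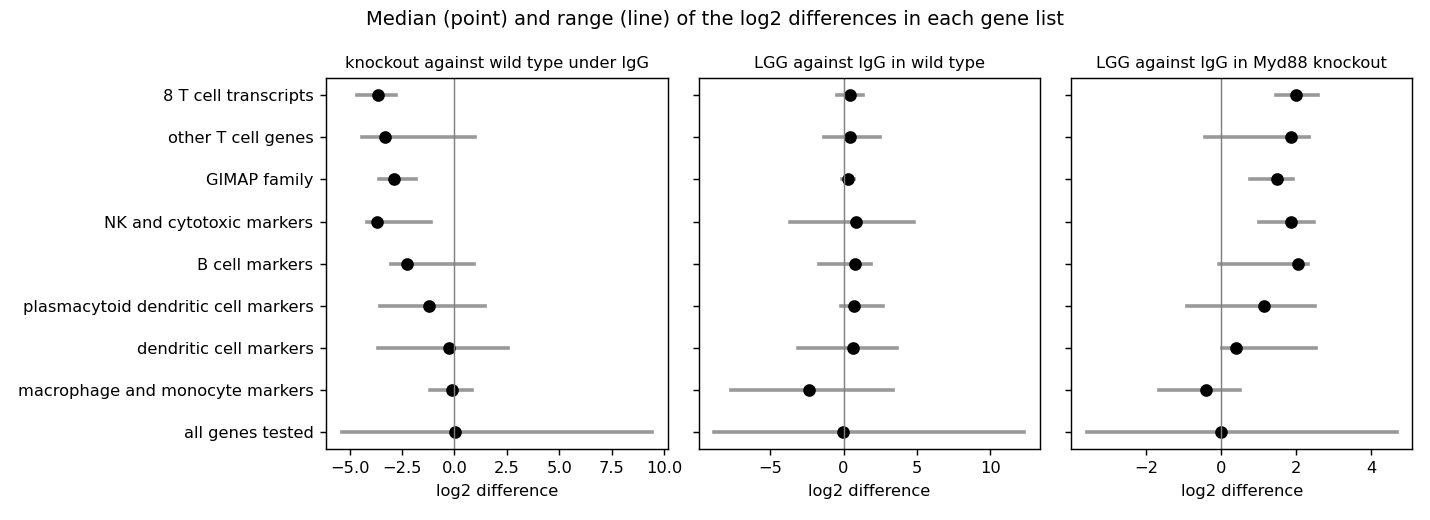
Median (point) and range (line) of the log2 differences of each gene list in 3 comparisons, with all 12749 genes tested at the bottom. The 8 T cell transcripts, the other T cell genes and the NK and cytotoxic genes have medians of -3.66, -3.32 and -3.67 in knockout under IgG, and 1.99, 1.85 and 1.87 with LGG in knockout.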

How the data were processed

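RNA of CD11c-purified cells was measured in 24 libraries, 3 in each of 8 groups taken from the labels. The authors deposited a table of normalised counts (a signal: reads per gene divided by a size factor for each library). Per the submitters' processing notes, STAR 2.4.0, HTSeq 0.6.1, DESeq2 and build mm10 were used; how genes were chosen for the table is not given in the sources used here, and the lowest listed mean is 9.574. Whole reads were recovered from the steps of the deposited signal for 100.0% of values (tolerance 0.001 of a read) and used for depth and count tests only.

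From these values, log2(value + 1) of genes with a mean of at least 10 was fitted with limma 3.58.1 (R 4.3.3, all 24 libraries, 1 mean per group, empirical Bayes with trend and robust settings), with Benjamini-Hochberg adjustment over the 12749 genes within each of 17 comparisons and a threshold of 0.05. Differences are on the log2(value + 1) scale, which understates changes of low genes. The members and gene lists were chosen with earlier results of these data known. All 8 members are named; of other lists, the up to 4 genes with the highest mean and those that define the cell type; of similar genes, the 8 with the highest Pearson r and a mean of at least 20, leaving out predicted genes and receptor segments. Alternatives were a pseudocount of 8, no filter, TMM scaling, only the libraries compared, a replicate block, edgeR 4.0.16 quasi-likelihood and DESeq2 1.42.0 on whole reads, and each library left out; leaving out 3 libraries and removing a length and GC trend were added after seeing the data. Genes were placed with an annotation of GRCm38. The limma fit was tested on simulated counts for LGG against IgG in wild type only, with the same spread in every group. The real groups differ in spread, so the simulation cannot speak for comparisons that use knockout anti-PD-1 or knockout LGG.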

Additional observations from a re-analysis of the deposited data

Results flagged for a closer look

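In 19 cases the effect of a treatment on a T cell transcript differed between knockout and wild type by the interaction test (limma, adjusted p under 0.05). Each value is the log2 effect in knockout minus that in wild type, and all 19 are above 0. For LGG the differences were 2.53 for Ikzf3, 2.37 for Cd3e, 2.06 for Gimap4, 1.94 for Cd3g, 0.99 for Cd2, 0.85 for Camk4 and 0.83 for Lck. For the combination they were 1.82 for Cd3e, 1.57 for Ikzf3, 1.50 for Cd3g, 1.41 for Gimap4, 0.96 for Cd2 and 0.62 for Lck. The Lck value passed narrowly (adjusted p = 0.0489) and did not pass in 15 of 21 alternatives, among them leaving out any single library of the 12 compared. For anti-PD-1 they were 1.50 for Cd3e, 1.49 for Cd3g, 1.09 for Lck, 1.05 for Cd2, 0.94 for Camk4 and 0.77 for Gimap4. With only the libraries compared in the fit, 0 of the anti-PD-1 values passed. Cd2 did not pass in 10 of 21 alternatives and Lck in 7. With a library left out, 4 to 8 members passed. The 3 sets share the IgG libraries of both genotypes and are not independent of each other.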

How the results depend on the processing

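The genotype difference called all 8 members lower in every treatment under each alternative run, except 7 under anti-PD-1 with only the libraries compared, and LGG and the combination against IgG in knockout called all 8 higher under each. With only the libraries compared in the fit, the members called were 7 for LGG against IgG in wild type, 7 for anti-PD-1 against IgG in wild type, 5 for the combination against IgG and 1 against LGG in wild type. In knockout they were 0 for anti-PD-1 against IgG, 1 for the combination against anti-PD-1 and 0 against LGG, and 0 for the anti-PD-1 interaction. DESeq2 called 3 for anti-PD-1 against IgG in wild type and 8 in knockout (203 and 602 of all genes). Without the 3 libraries that stood apart these were 6 and 7, and the combination against LGG in knockout gave 4; with a length and GC trend removed, anti-PD-1 against IgG in knockout gave 7. The cause of these changes was not tested. With a library left out, the counts were 3 to 3 for LGG, 0 to 0 for anti-PD-1 and 2 to 3 for the combination against IgG in wild type, and 7 to 7 and 0 to 0 for the combination against anti-PD-1 and against LGG there. In knockout they were 8 to 8, 1 to 8 and 8 to 8 against IgG, 6 to 8 for the combination against anti-PD-1 and 2 to 2 against LGG. They were 8 to 8 for each genotype difference, and 4 to 8, 7 to 8 and 5 to 5 for the anti-PD-1, LGG and combination interactions.

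Whether replicate numbers pair the libraries was not settled. Over 84 same-numbered pairs of libraries from different groups, the correlation of deviations ran from -0.832 to 0.56, with 22 over 0.1. Pairs with unlike numbers were not computed, so there is no reference for these values. A replicate block changed the count for anti-PD-1 against IgG in wild type to 0 and moved no other count of members by over 1.5 times.

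Sign changes were between values that did not pass. With the length and GC trend removed, the combination against LGG in wild type gave 0.001 for Camk4, 0.0018 for Cd3g and 3e-04 for Lck, and against IgG -0.094 for Ikzf3. Cd3g against LGG gave 0.0345 without wild-type combination replicate 3 and 0.0076 without LGG replicate 1 (-0.083 to 0.0345 over libraries left out). Gimap4, combination against IgG in wild type, gave 0.011 with DESeq2, 0.0161 with edgeR, 0.017 with TMM and 0.0216 without IgG replicate 1 (-0.0299 to 0.0216). Ikzf3 there gave -0.0092 and -0.0186 without combination replicates 2 and 3, and -0.0456 and -0.0019 without IgG replicates 1 and 2 (-0.0456 to 0.0499). The combination interaction of Camk4 gave -0.161 with a pseudocount of 8 and -0.0204 without knockout IgG replicate 3 (-0.0204 to 0.189). Cd3d in knockout, combination against anti-PD-1, gave -0.0744 without anti-PD-1 replicate 2 (-0.0744 to 0.9648). Of the single-gene values with a library left out, 888 kept direction and side of the threshold, 53 no longer passed, 10 passed newly and 9 changed sign; under the other settings these were 1136, 26, 54 and 8. A member rested on as few as 15 reads in a knockout library.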
